A study of Mus musculus with 12 samples.

Results

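Hypertrophic zones from mice that carry a misfolding collagen X were compared with and without a working Xbp1 gene, to ask which transcripts depended on XBP1 during endoplasmic reticulum (ER) stress in the growth plate. The comparison used 6 of the 12 arrays of the series, 3 from ColXN617K and 3 from C/X mice, and every probe whose detection score exceeded 0.95 on at least 3 of the 12 arrays, which kept 12023 of 45281 probes. ColXN617K mice carried a knock-in of collagen X p.Asn617Lys at Col10a1 and had intact Xbp1. C/X mice carried the same collagen X allele, homozygous by the study's PCR, together with Xbp1CartΔEx2. In Xbp1CartΔEx2, Cre recombinase deletes exon 2 of the Xbp1 gene wherever Col2a1 is expressed. Both genotypes therefore shared the collagen X mutation and differed in Xbp1, and 3 wildtype and 3 Xbp1CartΔEx2 arrays gave the corresponding comparison with normal collagen X. All mice were 2 weeks old, and each array held amplified RNA from the microdissected zone of 1 proximal tibial growth plate, from 3 mice per genotype. Col2a1 is switched on early in cartilage, so the Cre acts in the whole chondrocyte lineage and not in the hypertrophic zone alone, while cells that never expressed Col2a1 keep Xbp1. Levels are log2 intensities after background correction and quantile normalization, and differences are ColXN617K minus C/X, so that a positive value means a higher level with Xbp1 intact.

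Secretory cells answer unfolded protein in the ER through the sensors IRE1, PERK and ATF6. IRE1 is a kinase and endoribonuclease that removes a short intron from Xbp1 mRNA, and the spliced message encodes a transcription factor of the bZIP family. In mammalian cells XBP1 raises genes for ER chaperones, protein translocation, N-linked glycosylation, ER-associated degradation and vesicle transport, whereas PERK acts through ATF4 and CHOP on amino acid supply and cell death. Hypertrophic chondrocytes secrete large amounts of collagen X before cartilage is replaced by bone.

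Before the differences, some features of the arrays need to be stated. Probes above background made up 26.1%, 28.4% and 17.1% of all probes on the ColXN617K arrays and 23.2%, 24.4% and 17.2% on the C/X arrays, in replicate order. The arrays numbered 3 thus had the lowest shares in both genotypes, and ColXN617K replicate 3 correlated at 0.867 to 0.886 with its own genotype, below its correlation of 0.893 with C/X replicate 3. Xist, the RNA that coats the inactive X chromosome in female cells, had levels of 5.91, 5.82 and 5.90 in ColXN617K and 11.51, 5.88 and 10.64 in C/X. The Y-linked gene Eif2s3y was at 10.21, 10.67 and 9.05 in ColXN617K and at 6.67, 9.06 and 6.65 in C/X. Xist was therefore high on 2 of the 3 C/X arrays and on none of the ColXN617K arrays, and the labels do not give the sex of the mice. In the genotypes with normal collagen X it was high on 2 of the 3 wildtype arrays (8.90, 5.89 and 9.01) and on no Xbp1CartΔEx2 array, so that the imbalance ran the other way there. Col10a1, Ihh, Mef2c, Alpl, Mmp13, Sox9, Acan and Col2a1, which mark hypertrophic cartilage or cartilage in general, were above background on all 6 arrays. Skeletal muscle markers had mean levels of 8.19 to 10.45 on the ColXN617K arrays and 7.24 to 9.51 on the C/X arrays, against 7.44 to 7.59 in wildtype.

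In total 633 probes differed between ColXN617K and C/X by at least 2-fold with an adjusted p of 0.01 or less in limma, which is 5.26% of the 12023 tested. This model took its estimate of the spread from all 12 arrays, and with the 6 arrays of these genotypes alone 53 probes passed (14 higher, 39 lower). Median scaling of the arrays instead of quantile normalization left 17 (5 higher, 12 lower), and array weights gave 1439. ColXN617K was the higher genotype at 232 and the lower at 401 of the 633 probes, and 527 of the 633 had a gene symbol (493 genes). The median size of the 633 differences was 1.48 on the log2 scale, and 129 exceeded 4-fold. The ranges of the genotypes did not overlap at any of the 633 probes, against 3614 probes (30.1%) without overlap among all 12023. With 3 arrays per genotype the criteria leave little room for overlap, so its absence is no further support for the calls. With 1 probe per gene, the brightest, 156 of 7642 genes (2.04%) were higher and 220 (2.88%) lower. The count depended on which arrays and terms entered the model, as the plot of counts by setting shows. With 1 array left out in turn it ranged from 235 without C/X replicate 1 to 1189 without ColXN617K replicate 3, and stood at 1020 (464 higher, 556 lower) without both arrays numbered 3, where 512 of the 633 were still called. With a block for the replicate number shared by ColXN617K and C/X mice it was 1111 (486 higher, 625 lower), among them all 633. This block was chosen after seeing the data, and the labels do not pair the mice. With high or low Xist as a term, chosen after seeing the data, 128 probes remained (32 higher, 96 lower), 127 of them among the 633; the part of Xist in the other differences was not tested.

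**Figure D1:**
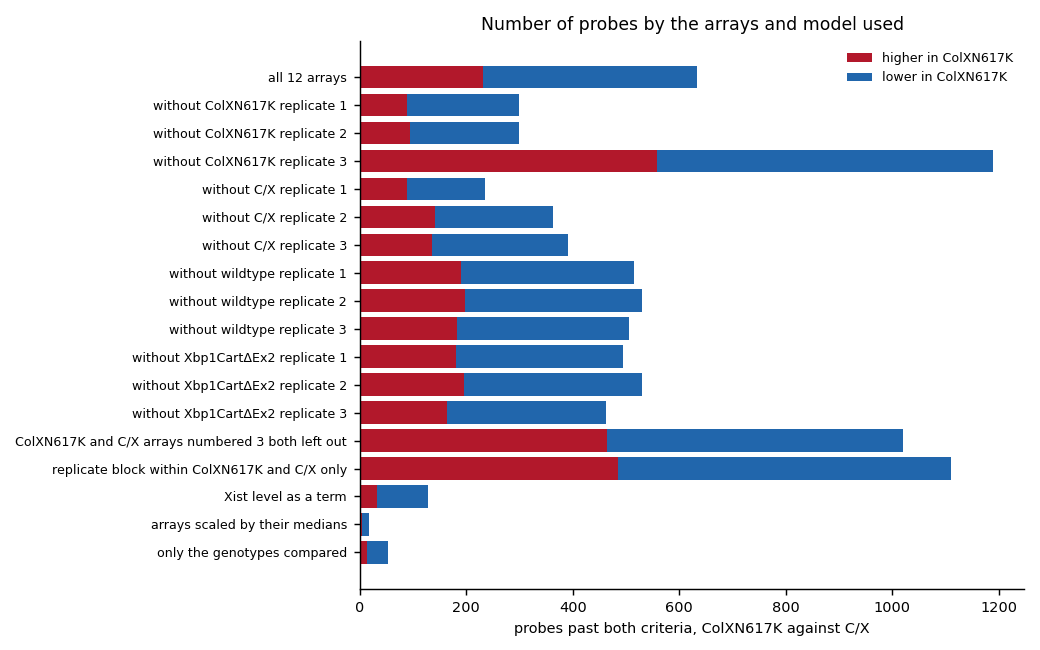
Number of probes past both criteria (fold of at least 2 and adjusted p of 0.01 or less) in ColXN617K against C/X, for all 12 arrays and under the settings named on the vertical axis. Red bars count probes higher and blue bars probes lower in ColXN617K; the total of 633 fell to 235 without C/X replicate 1 and rose to 1189 without ColXN617K replicate 3.

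The Xbp1 probe, whose position relative to exon 2 is not stated in the sources used here, read 11.68, 11.87 and 11.25 in ColXN617K, 10.94, 11.19 and 10.19 in C/X, 10.49, 11.03 and 10.67 in wildtype and 10.94, 10.82 and 10.96 in Xbp1CartΔEx2. The lowest ColXN617K array lay just above the highest C/X array, and the difference of 0.83 (standard error 0.27) had an adjusted p of 0.0578. Because a probe outside exon 2 would still bind the shortened transcript, these levels do not check the deletion.

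Reported XBP1 target genes of the ER were the group named most directly by the design, and 31 of the 39 on the list were measured. Dnajc3, Edem1, Hyou1, Srp54b, Spcs2, Derl1, Dnajb11 and Ufm1 had no kept probe, so nothing is said about them here. Of the 31 measured, 2 were higher in ColXN617K (Dnajb9 and Alg2) and 0 lower past both criteria. That is 6.45% of the measured list, against 4.92% called among all 7642 genes. At an adjusted p of 0.05 or less, 6 were higher (Dnajb9, Alg2, Sec61g, Txndc5, Pdia6 and Serp1) and 0 lower, against 575 higher among all 7642 genes (7.52%). In all, 19 of the 31 had positive differences, against 3763 of all 7642 genes, with a median of 0.25 against -0.01 over all genes. The replicate block for ColXN617K and C/X was chosen after seeing the data. With it the list held 4 higher genes, with Sec61g (adjusted p = 0.000799) and Txndc5 (0.00879) added. Without both arrays numbered 3 the list held 3. With the Xist term 0 passed, with differences of 1.55 for Dnajb9 (adjusted p = 0.0196) and 1.20 for Alg2 (0.0747).

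Dnajb9, which encodes the ER co-chaperone ERdj4, stood at 11.27, 11.56 and 10.77 in ColXN617K, 9.51, 9.53 and 8.85 in C/X, 9.22, 9.88 and 9.12 in wildtype and 9.03, 8.68 and 8.90 in Xbp1CartΔEx2. All 3 ColXN617K arrays were above every other array, and those of C/X lay within or near the range of the genotypes with normal collagen X. The difference between ColXN617K and C/X was 1.91 (standard error 0.28, adjusted p = 0.00131), a 3.75-fold change. A second Dnajb9 probe (ILMN_2510875) differed by 2.25 (adjusted p = 0.00877), with 10.22, 10.45 and 8.42 against 7.68, 7.68 and 6.99, and missed the adjusted p of 0.01 in 10 of the 12 fits that left out 1 array (0.0372 without ColXN617K replicate 1). Alg2, a mannosyltransferase that builds the precursor of N-linked glycans, was at 9.17, 9.02 and 9.16 in ColXN617K and at 7.86, 7.90 and 6.88 in C/X. The Alg2 groups were apart by more than 1 log2 unit, and the difference of 1.57 (standard error 0.31) had an adjusted p of 0.00617. That call was lost without any 1 of 7 arrays, with an adjusted p of up to 0.0237 (without ColXN617K replicate 1), and it was lost without both arrays numbered 3 (0.0135).

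Among the other targets, Sec61g, a subunit of the translocation channel, read 12.46, 12.46 and 11 against 10.40, 11.05 and 9.93. ColXN617K replicate 3 fell just below C/X replicate 2, and the difference of 1.51 (standard error 0.38) had an adjusted p of 0.0196. Txndc5, a protein disulfide isomerase, was at 12.02, 12.03 and 12.52 against 11.21, 11.06 and 11.05. Its groups did not overlap, and it reached the fold of 2 but not the adjusted p (1.08, adjusted p = 0.0137). Pdia6 and Serp1, a second disulfide isomerase and a protein that stabilizes membrane proteins during translocation, differed by 0.91 and 0.75 with adjusted p values of 0.0227 and 0.029. The chaperone Hspa5 (BiP) had levels of 9.94, 10.41 and 8.47 in ColXN617K, 9.05, 9.48 and 7.67 in C/X and 6.65 to 7.10 in wildtype. The arrays numbered 3 were the lowest of both mutants, so that the groups overlapped and the difference of 0.87 did not pass (adjusted p = 0.268). With the replicate block, which compares arrays of the same number and was chosen after seeing the data, the adjusted p of Hspa5 was 0.00347. The difference stayed under 2-fold. Creld2, Herpud1 and Derl3, ER proteins of folding and degradation, differed by 0.51 (adjusted p = 0.232), 0.51 (0.149) and -0.04 (0.959). Below 0 lay 12 of the 31 targets, of which Gfpt1, the first enzyme of the hexosamine pathway, had the lowest difference (-1.48, adjusted p = 0.119) and Wfs1, an ER membrane protein, was at -0.79 (adjusted p = 0.0505).

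**Figure D2:**
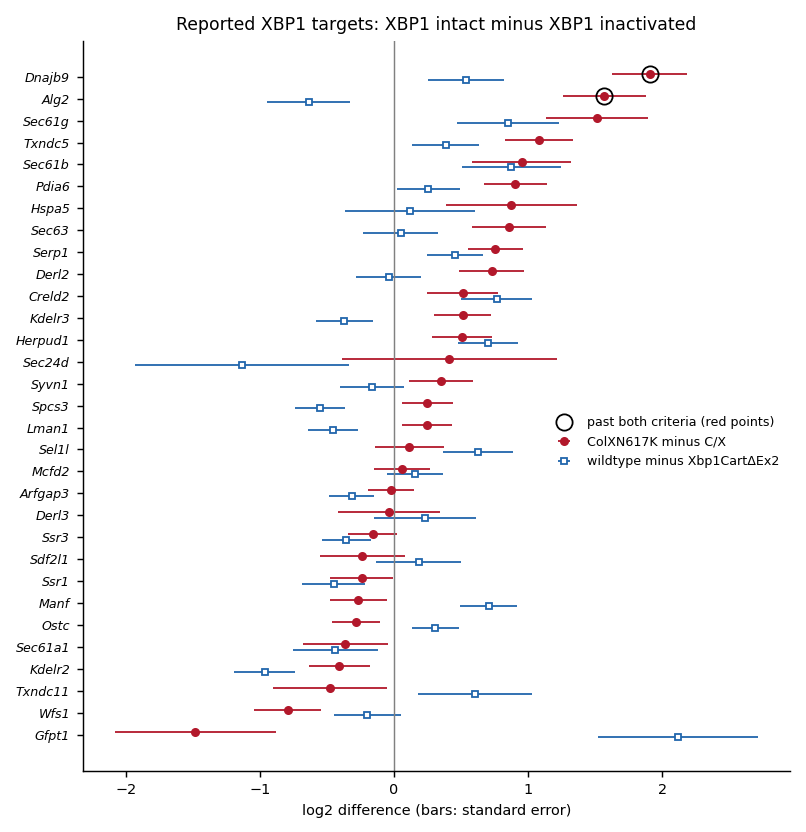
Log2 differences between XBP1 intact and XBP1 inactivated for the 31 measured XBP1 target genes, in order of the difference with mutant collagen X. Red points are ColXN617K minus C/X and blue squares wildtype minus Xbp1CartΔEx2, with bars of 1 standard error; the circled genes, Dnajb9 and Alg2, passed both criteria with mutant collagen X.

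Promoter windows were read for the targets because XBP1 binds the core TGACGTG of the UPR element, and with NF-Y the ER stress element (CCAAT, 9 bases, CCACG). The windows run from 250 bases before to 50 bases after a start in RefSeq (GRCm38.p6), and 24 of the 31 targets had 1 or more, 28 in all. On either strand TGACGTG was present in 5 of the 28 windows (17.9%) against 2.01% of all 32851 windows and 2.91% of the 8039 windows of measured genes. The ER stress element was in 5 (17.9%) against 0.119% and 0.162%. The ER stress element was in the windows of Creld2, Derl3, Hspa5, Pdia6 and Syvn1, none of which passed both criteria. Of 197 windows of genes called higher in ColXN617K, 9 held TGACGTG (4.57%), as did 12 of 368 windows of genes called lower (3.26%), beside 2.91% for measured genes, and the ER stress element was in 0 of either. The list was chosen for reported regulation by XBP1, so its share of motifs is a description of known targets.

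The windows of 4 genes of ER folding are shown 5′ to 3′ to set the matched letters beside the levels, with matches in capitals.
Dnajb9, chr12:44210019-44210318 (- strand): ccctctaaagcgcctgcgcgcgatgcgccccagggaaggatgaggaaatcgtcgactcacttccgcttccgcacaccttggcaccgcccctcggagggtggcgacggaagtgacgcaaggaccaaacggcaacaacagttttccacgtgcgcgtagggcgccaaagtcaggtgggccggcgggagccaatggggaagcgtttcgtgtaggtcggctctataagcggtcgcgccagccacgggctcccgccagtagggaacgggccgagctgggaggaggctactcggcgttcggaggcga
Fkbp11, chr15:98727578-98727877 (- strand): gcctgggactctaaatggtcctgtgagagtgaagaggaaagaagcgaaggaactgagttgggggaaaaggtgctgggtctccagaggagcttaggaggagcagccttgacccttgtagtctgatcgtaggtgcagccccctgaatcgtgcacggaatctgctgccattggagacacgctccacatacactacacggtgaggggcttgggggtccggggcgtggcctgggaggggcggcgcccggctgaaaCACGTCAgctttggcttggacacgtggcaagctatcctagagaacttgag
Txndc5, chr13:38527865-38528164 (- strand): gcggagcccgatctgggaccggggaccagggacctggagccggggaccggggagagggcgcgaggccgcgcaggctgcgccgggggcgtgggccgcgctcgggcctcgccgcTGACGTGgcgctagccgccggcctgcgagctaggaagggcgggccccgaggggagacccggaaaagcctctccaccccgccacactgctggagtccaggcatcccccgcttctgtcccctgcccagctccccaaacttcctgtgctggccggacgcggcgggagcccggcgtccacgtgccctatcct
Pdia6, chr12:17266339-17266638 (+ strand): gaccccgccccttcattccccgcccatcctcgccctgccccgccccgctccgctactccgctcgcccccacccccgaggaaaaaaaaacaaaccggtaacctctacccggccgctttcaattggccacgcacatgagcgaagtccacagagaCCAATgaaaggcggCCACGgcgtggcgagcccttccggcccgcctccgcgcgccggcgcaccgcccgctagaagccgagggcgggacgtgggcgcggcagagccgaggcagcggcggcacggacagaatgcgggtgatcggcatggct

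The window of Dnajb9, the target with the highest difference, held none of these exact letters. In 1 of the 2 windows of Fkbp11 the reverse complement of the core lay at bases 1 to 7 from the start, and in 1 of the 3 windows of Txndc5 the core lay at -138 to -132. Pdia6, which missed the fold of 2, had a complete ER stress element at -98 to -80. A match is a description and not a shown binding site, and a missing match says only that the letters are not in the window.

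Counts for this list and those below stand beside 2.04% of all 7642 genes called higher and 2.88% called lower, and no set test was run. A list without calls is not shown to be unchanged, since with so few arrays differences near 2-fold seldom passed in simulated data. Beyond the reported targets, ER chaperones and folding enzymes had 2 of 26 measured genes higher (Dnajb9 and Fkbp11) and 0 lower, with a median of 0.26. Fkbp11, a peptidyl-prolyl isomerase of the secretory pathway, was at 12.53, 12.72 and 12.26 in ColXN617K, 10.87, 10.53 and 10.47 in C/X, 12.04, 11.72 and 11.99 in wildtype and 11.42, 12.27 and 11.76 in Xbp1CartΔEx2. C/X held the 3 lowest arrays of the series for Fkbp11, below both genotypes with normal collagen X. ColXN617K exceeded C/X by 1.88 (standard error 0.24, adjusted p = 0.000522), also with the Xist term (adjusted p = 0.00498). In N-linked glycosylation 2 of 28 genes were higher (Alg2 and Alg6) and 1 lower (Uap1). Alg6, a glucosyltransferase of the same glycan precursor, read 9.90, 9.65 and 9.94 against 8.56, 8.42 and 8.76, and the groups were 1.25 apart (standard error 0.19, adjusted p = 0.00145). Uap1, which makes UDP-N-acetylglucosamine, varied widely within ColXN617K (8.69, 7.45 and 6.08, against 9.85, 10.43 and 9.83 in C/X). Its fall of -2.63 lost the adjusted p in 8 of the 12 fits without 1 array (0.0236 without C/X replicate 2).

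Of 23 genes of translocation and signal peptide processing, Srp72, a protein of the signal recognition particle, was higher by 1.23 (adjusted p = 0.00873) and 0 were lower. Srp72 kept the call in only 2 of the 12 fits without 1 array (adjusted p = 0.0357 without ColXN617K replicate 1). ER-associated degradation had 0 of 20 genes past both criteria, with 2 higher and 0 lower at an adjusted p of 0.05 or less. In vesicle transport 1 of 39 was lower, the SNARE protein Ykt6 (9.01, 8.98 and 9.21 against 11.05, 11.02 and 11.26). The Ykt6 arrays of each genotype lay close together, and the difference was -2.04 (adjusted p = 0.000434).

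Among 8 sensors and bZIP transducers, Mbtps1, the protease that cleaves ATF6 and SREBPs in the Golgi, was the 1 gene past both criteria. It was at 7.39, 7.34 and 7.37 in ColXN617K, 8.75, 9.23 and 9.47 in C/X and 8.65 to 8.73 in wildtype. ColXN617K was thus the low genotype, by -1.78 (standard error 0.20, adjusted p = 0.000302). Of 27 PERK, ATF4 and CHOP effectors, 0 were higher and 1 lower (Sesn2, -1.39, adjusted p = 0.00586), with a median of 0.06. Sesn2 kept the call in 6 of the 12 fits without 1 array (adjusted p = 0.0268 without ColXN617K replicate 2). Ddit3, which encodes CHOP, read 13.26, 12.85 and 13.44 against 13.38, 13.28 and 13.45, with overlapping groups and a difference of -0.19 (adjusted p = 0.708). Fgf21, a hormone induced by ATF4, was at 13.68, 13.54 and 13.64 against 12.97, 12.98 and 13.19, while all 6 arrays with normal collagen X were at or below 7.38. The 2 mutants did not overlap for Fgf21, but their difference of 0.57 missed both criteria (adjusted p = 0.0572). Amino acid synthesis (12 genes), cytosolic aminoacyl-tRNA synthetases (18) and candidate targets of mRNA decay by IRE1 (16) had 0 genes past both criteria. At an adjusted p of 0.05 or less these held 0 genes, 1 higher and 1 lower gene, in that order. These counts rest on the brightest probe of each gene. The 1 lower gene among the decay candidates was Sparc (-0.74, adjusted p = 0.0233). Its 2 other probes passed both criteria in opposite directions (2.47 and -3.49).

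**Figure D3:**
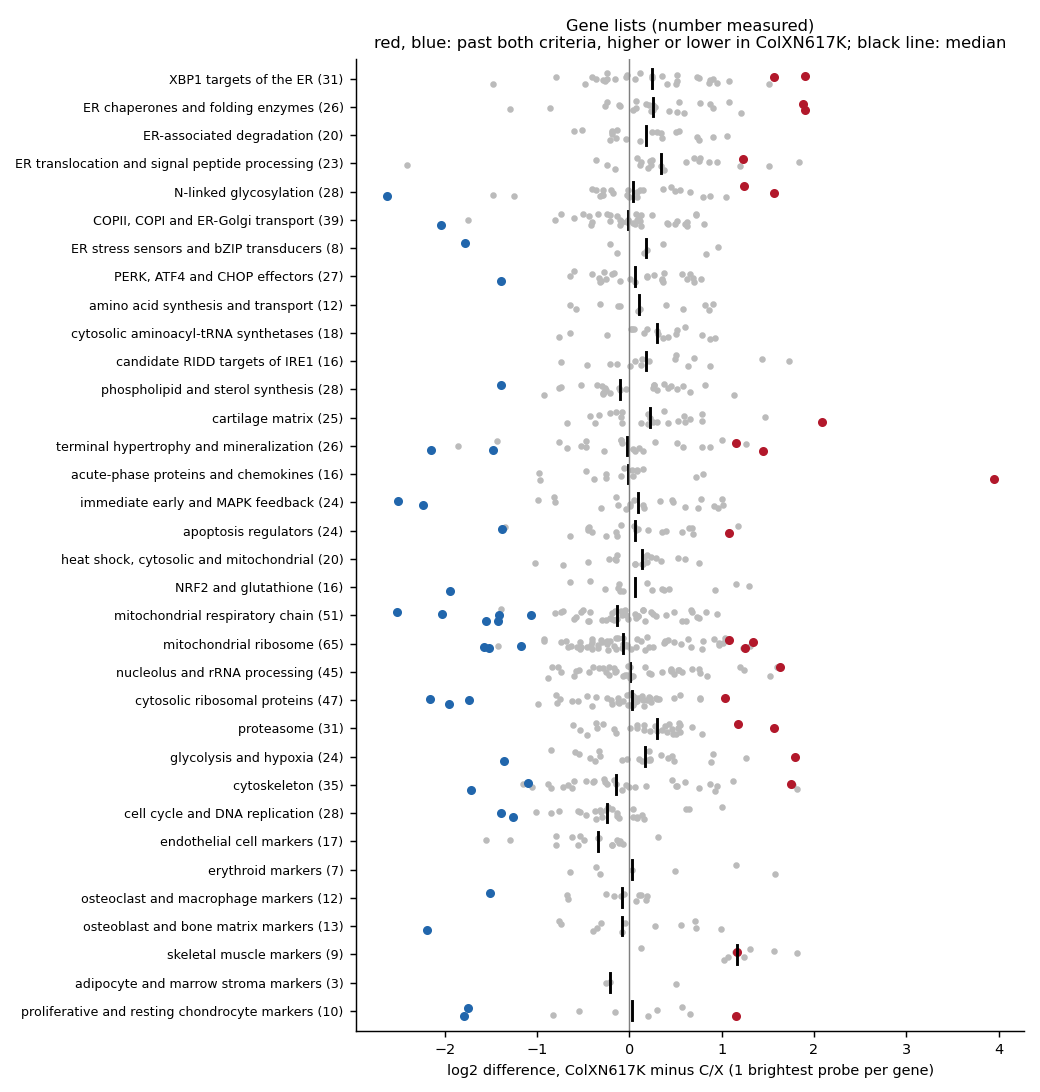
Log2 differences (ColXN617K minus C/X) of the measured genes of 34 lists, 1 brightest probe per gene, with the number measured in brackets. Red and blue points passed both criteria, higher or lower in ColXN617K, grey points did not, and black lines are list medians, which lie between -0.34 and 0.34 except for the 9 skeletal muscle markers at 1.16.

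The 15 largest differences in each direction with a symbol included secreted signals, matrix proteins and many probes of cytosolic genes. Cxcl1, a chemokine that draws neutrophils, was at 11.19, 11.11 and 10.44 in ColXN617K, 6.83, 6.72 and 7.33 in C/X, 6.29, 6.16 and 6.21 in wildtype and 6.48, 8.92 and 6.75 in Xbp1CartΔEx2. It was above background on no C/X array, so the rise in ColXN617K was at least 12.3-fold (adjusted p = 0.000505). That bound sets the mean of the bright group against the lowest signal above background on each array of the dim group. Cxcl1 was the 1 gene past both criteria among 16 acute-phase proteins and chemokines measured. Tmem87a, a membrane protein of the Golgi, read 10.37, 10.64 and 9.49 in ColXN617K and 6.35 to 7.45 on the arrays of the other genotypes. The probe was above background on 1 of the 3 C/X arrays. The ColXN617K arrays stood alone, at 3.18 above C/X (standard error 0.32, adjusted p = 0.000153), and a second probe differed by 1.25 (adjusted p = 0.00872). Tlcd4, a TLC domain protein, was at 9.62, 9.40 and 9.75 against 7.29, 7.10 and 7.09 and 6.39 to 6.84 in both genotypes with normal collagen X. Its difference of 2.43 (standard error 0.19, adjusted p = 4.07e-05) passed both criteria in all 31 alternative settings, as did 3 other named probes (Eif5a, 1 of Fn1 and 1 of Rpl29). Egln3, a prolyl hydroxylase that marks HIF for destruction and is itself raised by hypoxia, was at 9.33, 8.97 and 8.54 against 7.33, 7.08 and 7.06, a difference of 1.79 (adjusted p = 0.00121).

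Several high differences coincided with another probe of the gene that moved less. Anxa4, a calcium-dependent membrane-binding protein, rose at least 6.23-fold on 1 probe (9.44, 9.59 and 10.77 against 6.81, 6.74 and 6.29, adjusted p = 0.0017). Its second probe differed by 0.69 (adjusted p = 0.113). Mak16, a factor of large ribosomal subunit assembly, rose at least 4.85-fold on 1 probe (adjusted p = 0.000103), whereas its 2 other probes differed by 0.56 and 0.59 (adjusted p = 0.325 and 0.0574). Actb, cytoplasmic beta-actin, showed the same on the lower side. On the dimmer probe, whose difference was -3.86 (adjusted p = 0.000187), it read 10.43, 8.35 and 9.22 in ColXN617K and 13.25, 13.04 and 13.28 in C/X, but on the brighter probe 14.27, 14.26 and 14.22 against 14.39, 14.11 and 14.48 (adjusted p = 0.82). The brighter probe lay near 14.61, the highest level that quantile normalization gives on any array, where differences are compressed, so it could show little change. Eif5a, a translation factor, fell at least 5.57-fold on the probe that was not above background in ColXN617K (adjusted p = 0.00025) and differed by -0.36 on the other (adjusted p = 0.259). Sparc, the matrix protein osteonectin, had probes at 2.47, -3.49 and -0.74, the first 2 past both criteria in opposite directions, so it has no single direction here. Of 209 genes with several probes and at least 1 called, 33 were called on 2 or more, of which 27 had no probe with the opposite sign, 74 had a probe with the opposite sign and 4 were called both ways (Nipbl, Ccdc85b, Rap2c and Sparc).

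Genes whose probes moved together included Fn1, Nrp1, Fam20c, Wipi1, Wipi2 and Trip6, all lower in ColXN617K, and Mtdh and Mast2, higher; all of these but Fn1 were chosen after their values were seen. Fn1 encodes fibronectin, and its probe ILMN_2595714 was at 6.89, 7.13 and 7.03 in ColXN617K, 10.72, 10.93 and 10.30 in C/X, 7.42, 8.05 and 7.55 in wildtype and 7.92, 8.11 and 7.37 in Xbp1CartΔEx2. C/X was the high genotype, apart from the 9 arrays of the others, and the difference was -3.63 (standard error 0.25, adjusted p = 1.51e-05), a 12.4-fold change on a probe that was above background on 1 of the 3 ColXN617K arrays. The second Fn1 probe fell by 2.19 (adjusted p = 0.000283). Nrp1, a co-receptor for semaphorins and VEGF, fell on each of its 3 probes, by 2.10, 1.92 and 2.06 (adjusted p = 0.000116, 0.00292 and 0.000161). On the probe ILMN_1237197 of Nrp1 the arrays read 9.69, 9.34 and 9.64 in ColXN617K, 11.60, 11.48 and 11.87 in C/X, 11.85 to 12.17 in wildtype and 12.81 to 13.32 in Xbp1CartΔEx2, so that ColXN617K was the lowest genotype. Fam20c, the kinase that phosphorylates secreted mineralization proteins, fell by 2.17 on 1 probe (7.22, 7.10 and 7.34 against 9.12, 8.68 and 10.37, adjusted p = 0.00222), and at least 3.34-fold on the other. Wipi1 and Wipi2, which bind phosphoinositides in autophagosome formation, fell on both probes each, between -2.16 and -1.11 for Wipi1 and by 1.82 and 1.48 for Wipi2, and Trip6, a LIM protein of focal adhesions, fell by 2.10 and 1.63. In the other direction Mtdh, a membrane protein also called AEG-1, rose by 1.14 and 2.03 on its 2 probes, and Mast2, a microtubule-associated kinase, by 1.14 and at least 2.72-fold.

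**Figure D4:**
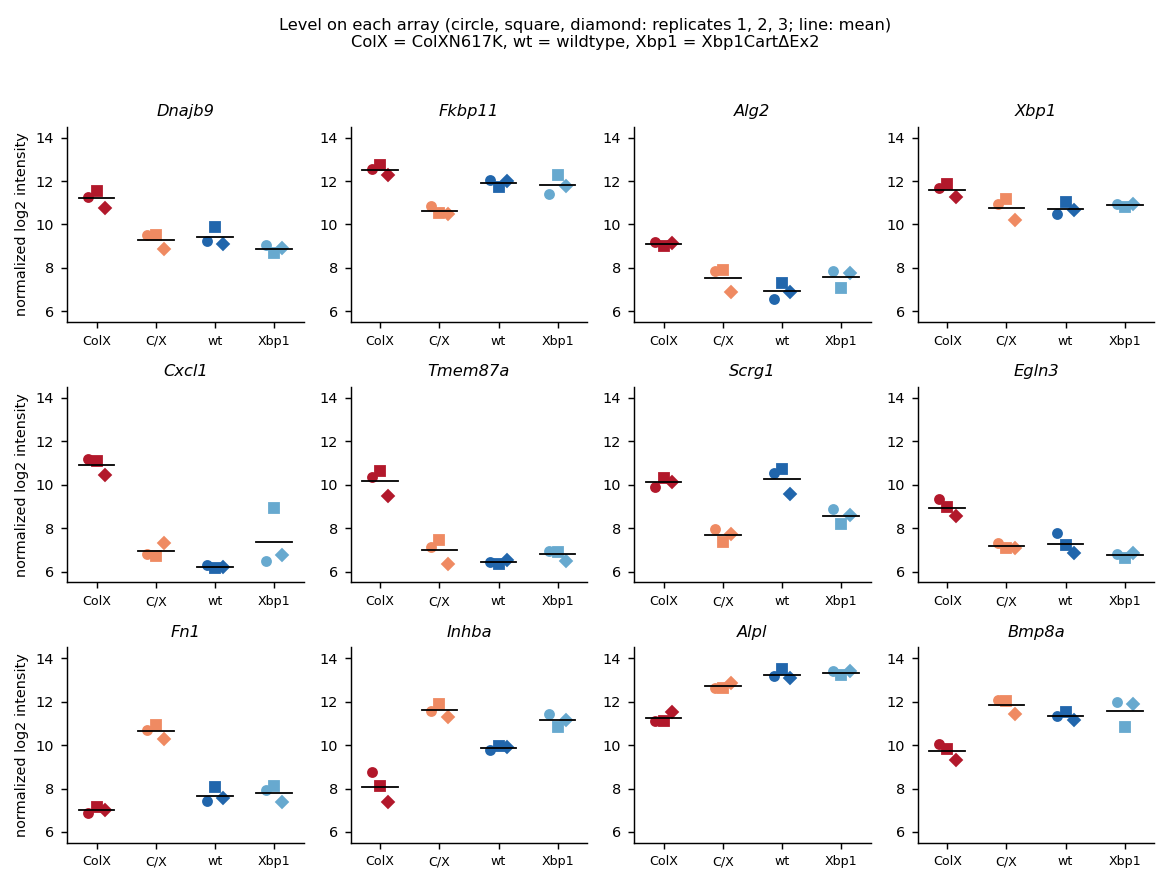
Normalized log2 intensity of 12 genes on each of the 12 arrays, by genotype, with circles, squares and diamonds for replicates 1, 2 and 3 and a line at the mean. Dnajb9, Alg2, Cxcl1, Tmem87a and Egln3 had their highest mean in ColXN617K, Fn1 had its highest in C/X, and Inhba, Alpl and Bmp8a had their lowest in ColXN617K.

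Terminal hypertrophy and mineralization had 2 of 26 measured genes higher (Dlx3 and Foxa3) and 2 lower (Alpl and Bmp8a), with a median of -0.02. Alpl, the tissue-nonspecific alkaline phosphatase that starts mineralization, read 11.11, 11.09 and 11.51 in ColXN617K, 12.62, 12.64 and 12.87 in C/X, 13.08 to 13.49 in wildtype and 13.22 to 13.41 in Xbp1CartΔEx2. ColXN617K lay below C/X, and C/X below both genotypes with normal collagen X, with a difference between the mutants of -1.47 (standard error 0.20, adjusted p = 0.000647). Bmp8a, a bone morphogenetic protein, was at 10.04, 9.81 and 9.31 in ColXN617K, 12.10, 12.05 and 11.46 in C/X, 11.16 to 11.54 in wildtype and 10.84 to 11.96 in Xbp1CartΔEx2. C/X overlapped both genotypes with normal collagen X, and ColXN617K alone was low (-2.15, standard error 0.32, adjusted p = 0.00128). The homeobox gene Dlx3 was higher by 1.45 (adjusted p = 0.00661) but lost the call in 9 of the 12 fits without 1 array, including every fit without a wildtype or Xbp1CartΔEx2 array, and was above background on 1 C/X array. The forkhead gene Foxa3 was higher by 1.15 (adjusted p = 0.004) and lost the call in 4 of the 12 fits (0.0199 without C/X replicate 1).

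Inhba, which encodes the activin A subunit, had levels of 8.76, 8.09 and 7.37 in ColXN617K, 11.58, 11.90 and 11.32 in C/X, 9.77, 9.98 and 9.91 in wildtype and 11.46, 10.86 and 11.17 in Xbp1CartΔEx2. Both genotypes without XBP1 were above both genotypes with it, and the difference was -3.53 with mutant collagen X (standard error 0.31, adjusted p = 6.74e-05). Junb, an AP-1 transcription factor, and Ccn1, a matricellular protein, were the 2 of 24 immediate early genes past both criteria, and both were lower in ColXN617K. Junb read 7.74, 7.64 and 9.10 in ColXN617K, 10.48, 10.65 and 10.87 in C/X and 10.57 to 11.14 in wildtype, so that ColXN617K alone was low (-2.51, adjusted p = 0.00102). Ccn1 was at 8.60, 7.95 and 7.09 against 10.05, 10.02 and 10.26 (-2.23, adjusted p = 0.00237), while other Ccn1 probes reached 0.74, and the call was lost without C/X replicate 1 (adjusted p = 0.0109). In cartilage matrix 1 of 25 genes was higher, Ecrg4, a secreted peptide precursor (10.40, 10.58 and 10.61 against 8.42, 8.01 and 8.90, a difference of 2.09). Scrg1, a secreted protein of chondrocytes, was at 9.92, 10.32 and 10.11 in ColXN617K, 7.96, 7.36 and 7.75 in C/X, 10.54, 10.73 and 9.59 in wildtype and 8.90, 8.21 and 8.62 in Xbp1CartΔEx2. For Ecrg4 and Scrg1 the genotypes without XBP1 were the low ones (Scrg1 2.42, standard error 0.30, adjusted p = 0.000459).

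A further list held the genes that were also chosen for qPCR. Of its 20 genes 16 had a kept probe and 1 passed both criteria, Bmp8a. Col10a1, the mutated gene itself, read 8.43, 8.48 and 9.78 in ColXN617K, 9.27, 9.33 and 8.35 in C/X and 11.75 to 12.47 in wildtype. The mutants overlapped fully, at a difference of -0.09 (standard error 0.40, adjusted p = 0.923). Mmp13, a collagenase of the last hypertrophic cells, overlapped too (-0.47, adjusted p = 0.315). Cdkn1c, the cell cycle inhibitor p57, was at 14.51, 14.61 and 14.49 against 13.79, 13.31 and 13.52, with wildtype at 14.37 to 14.61. The value 14.61 is the highest that quantile normalization gives on any array, so levels near it are compressed and the fold is no exact size. The measured Cdkn1c difference was 1.00 (adjusted p = 0.00377), at the edge of the 2-fold criterion. Pth1r, the receptor for parathyroid hormone-related protein, was at 11.75, 11.56 and 13.25 against 13.59, 13.43 and 13.85, a difference of -1.43 (adjusted p = 0.0193). Vegfa read 10.92, 10.77 and 9.78 against 9.32, 9.70 and 8.65, a difference of 1.27 (adjusted p = 0.0256), and a second probe differed by 0.13 (adjusted p = 0.826). Both passed the criteria without the arrays numbered 3, Pth1r at -1.85 (adjusted p = 0.000234) and Vegfa at 1.34 (0.00431). Acan, the gene of aggrecan, differed by 0.26 on its brightest probe (adjusted p = 0.358) and by -1.05 on the other (adjusted p = 0.00508).

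Among organelle lists, the mitochondrial respiratory chain had 0 of 51 genes higher and 6 lower (Ndufb10, Atp5l, Ndufs4, Atp5j, Ndufa5 and Ndufa2). Atp5j, a subunit of the ATP synthase, was at 11.98, 12.22 and 11.74 against 13.32, 13.38 and 13.50, with a difference of -1.42 (adjusted p = 0.000505). Atp5l, another subunit, was at 8.83, 8.79 and 9.06 against 10.93, 10.95 and 10.89, with a difference of -2.03 (adjusted p = 0.000181). Neither pair of groups came near to overlapping. The median of the 51 genes was -0.14, or 0.43 after median scaling of the arrays, which shifted the median of all probes to 0.30, and 31 of the 51 were below 0. Ndufb10 fell by 2.51 on 1 probe and differed by 1.44 on another (adjusted p = 0.023), and for Ndufs4 the mean of all probes lay at 0.01, so that these genes have no settled direction. The mitochondrial ribosome had 3 of 65 higher (Mrps30, Mrpl36 and Mrpl13) and 3 lower (Mrpl53, Mrps23 and Mrpl44), of which Mrps30, Mrpl36 and Mrps23 lost the call in 2, 4 and 3 of the 12 fits without 1 array. Cytosolic ribosomal proteins had 1 of 47 higher (Rps15, lost in 6 of the 12 fits without 1 array) and 3 lower (Rpl29, Rpl22 and Rpl30). Whether their probes share sequence with processed copies of these genes was not tested.

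The proteasome had 2 of 31 genes higher, the activator Psme3 (1.56, adjusted p = 0.000719) and the catalytic subunit Psmb7 (1.18, adjusted p = 0.00726), and 0 lower, with a median of 0.30. The call of Psmb7 was lost in 11 of the 12 fits without 1 array (adjusted p = 0.0284 without ColXN617K replicate 2), and its 2 other probes differed by -0.49 and -0.21. In the cytoskeleton list 1 of 35 was higher, the focal adhesion protein Vcl, and 2 were lower, the membrane linker Msn and the myosin Myh10 (lost in 5 of the 12 fits without 1 array, 0.0239 without C/X replicate 1). Vcl was at 10.55, 10.76 and 10.12 against 8.77, 9.02 and 8.39 (1.75, adjusted p = 0.000507), where C/X lay below both genotypes with normal collagen X (9.86 to 10.42). Msn read 8.33, 8.01 and 8.15 against 9.60, 9.97 and 10.06 (-1.71, adjusted p = 0.000618), with wildtype at 9.30 to 9.71. Insig1, which holds SREBP in the ER, was above background on no ColXN617K array and was at least 2.07-fold lower there (adjusted p = 0.00162, and 0.0104 without C/X replicate 1), while its second probe differed by -0.24 (adjusted p = 0.503). It was the 1 gene called among 28 of phospholipid and sterol synthesis. Gss, glutathione synthetase and the 1 gene called among 16 of NRF2 and glutathione, fell by 1.95 and 1.73 on its 2 probes (adjusted p = 0.00148 and 0.00841). Cycs, cytochrome c, was higher by 1.08 (adjusted p = 0.00268) and Bad, a pro-apoptotic BCL2 protein, fell by 1.38 (adjusted p = 0.0013), the 2 genes called among 24 apoptosis regulators. Cycs kept the call in 9 of the 12 fits without 1 array (adjusted p = 0.0144 without ColXN617K replicate 2).

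In glycolysis and hypoxia 1 of 24 genes was higher, Egln3, and 1 lower, the pyruvate kinase Pkm (11.80, 11.31 and 11.89 against 13.23, 13.18 and 12.68). The difference of Pkm was -1.36 (adjusted p = 0.00729), and 8 of the 12 fits without 1 array lost it (adjusted p = 0.0339 without C/X replicate 1). Of 45 nucleolar and rRNA processing genes, Nop14, of the small subunit processome, was higher by 1.63 (adjusted p = 0.00332) and 0 were lower. Nop14 kept the call in 10 of the 12 fits without 1 array (adjusted p = 0.0168 without ColXN617K replicate 2). Cell cycle and DNA replication had 0 of 28 genes higher and 2 lower, the cyclin Ccnd2 and the histone variant H2az1, with a median of -0.24. Ccnd2 read 10.17, 10.01 and 9.48 in ColXN617K and 11.31, 11.32 and 11.20 in C/X, where C/X was the highest genotype, and the difference was -1.39 (adjusted p = 0.00233, and 0.0126 without C/X replicate 1). H2az1 lost the call in 5 of the 12 fits without 1 array (adjusted p up to 0.0179) and Ccnd2 in 2. Heat shock proteins had 0 of 20 genes past both criteria, with 1 higher and 2 lower at an adjusted p of 0.05 or less.

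Markers of cells that a dissected zone can include were also compared. Markers of proliferative and resting chondrocytes had 1 of 10 genes higher, Foxa3, and 2 lower. Foxa3 was also counted above under terminal hypertrophy, on the same probe, so its rise marks neither stage. The lower genes were the transcription factor Sox6 and the hedgehog receptor Ptch1 (-1.75 and -1.79, adjusted p = 0.00754 and 0.00885). Sox6 and Ptch1 each lost the call in 10 of the 12 fits without 1 array (adjusted p up to 0.0279 and 0.034), without both arrays numbered 3 (0.02 and 0.0388) and with the Xist term (0.0448 and 0.0755). All 9 measured skeletal muscle markers had positive differences, against 3763 of all 7642 genes. Their median was 1.16, or 0.73 without both arrays numbered 3 and 0.56 with the Xist term. Only 1 passed both criteria (Des, 1.16, adjusted p = 0.00566). Des kept the call in 7 of the 12 fits without 1 array (adjusted p = 0.026 without ColXN617K replicate 2). Acta1, skeletal actin, varied most, between 8.93 and 11.69 in ColXN617K and between 6.74 and 10.71 in C/X. On 16 of the 17 endothelial markers the difference was below 0, against 3879 of all 7642 genes, with 0 past both criteria. Their median was -0.34, or -0.11 without both arrays numbered 3 and 0.01 with the Xist term. Their mean levels were 7.12 to 7.31 in ColXN617K and 7.11 to 8.37 in C/X. The lowest signal above background was 6.9 to 7.7 by array. In ColXN617K, 3 of these markers were above background on all arrays and 6 on none. Of 12 osteoclast and macrophage markers, Laptm5, a lysosomal protein of blood cells, was the 1 gene past both criteria (10.40, 10.59 and 10.38 against 11.88, 11.93 and 12.09). The Laptm5 call was lost in 5 of the 12 fits without 1 array (adjusted p up to 0.0177), without both arrays numbered 3 (0.0125) and with the Xist term (0.0534). The 13 osteoblast and bone matrix markers had 1 lower gene, Fn1, and the 7 erythroid and 3 adipocyte markers 0. In such bulk tissue fewer cells of a type and less RNA per cell cannot be told apart, and the part of these cells in the differences above was not tested.

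With normal collagen X, 212 probes (1.76%) differed between wildtype and Xbp1CartΔEx2, 71 higher and 141 lower in wildtype. Their differences come from arrays that are not among the 6 compared above, but the model took the spread from the arrays of all genotypes. These calls are therefore not independent of the 633. The count of 212 became 57 to 480 with 1 array left out in turn, the highest without ColXN617K replicate 3. It was 8 with median scaling and 49 with the Xist term, so the shared probes that follow rest on the model as fitted. Of the 633 probes, 33 (5.21% of the 633 and 15.6% of the 212) passed in the same direction there, and 5 in opposite directions. The largest of all differences was that of a probe without a symbol, ILMN_1214408, singled out after its values were seen. It was at 13.77, 13.63 and 13.68 in ColXN617K, 8.33, 8.42 and 7.01 in C/X, 13.05, 12.97 and 12.80 in wildtype and 7.51, 7.61 and 7.75 in Xbp1CartΔEx2. Genotypes with intact Xbp1 were thus far above those without, by 5.77 with mutant and 5.32 with normal collagen X. Cap1, an actin-binding protein, had 10.68, 10.80 and 9.54 in ColXN617K, 6.68, 7.04 and 6.14 in C/X, 10.41 to 10.82 in wildtype and 7.57 to 8.08 in Xbp1CartΔEx2, which made it at least 8.28-fold higher in ColXN617K (adjusted p = 6.74e-05). Rps23rg1, Alad and Scrg1 were also higher with Xbp1 intact under both conditions, by 2.80 and 2.53, 2.47 and 1.69, and 2.42 and 1.71. On the lower side Gpn2, a GTPase for RNA polymerase assembly, was at 7.62, 7.95 and 6.96 against 10.90, 10.50 and 11.04, with differences of -3.30 and -3.54. Tomm22, of the mitochondrial import channel, and Bsdc1 repeated that pattern (-2.78 and -3.42 for Tomm22, -2.95 and -3.86 for Bsdc1).

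The 27 genes with a symbol among the 33 probes included 6 on chromosome 4 and 4 on chromosome 17, where 490 and 370 of the 7642 genes were measured. Bsdc1 and Gpn2 bounded a stretch of 38 measured genes of chromosome 4, and with Cap1 the stretch was 80 genes. Flywch2, Ndufb10 and Clcn7 lay within a stretch of 40 on chromosome 17. These stretches were drawn after the calls, with called genes at their ends, so they are no test of clustering.

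**Figure D5:**
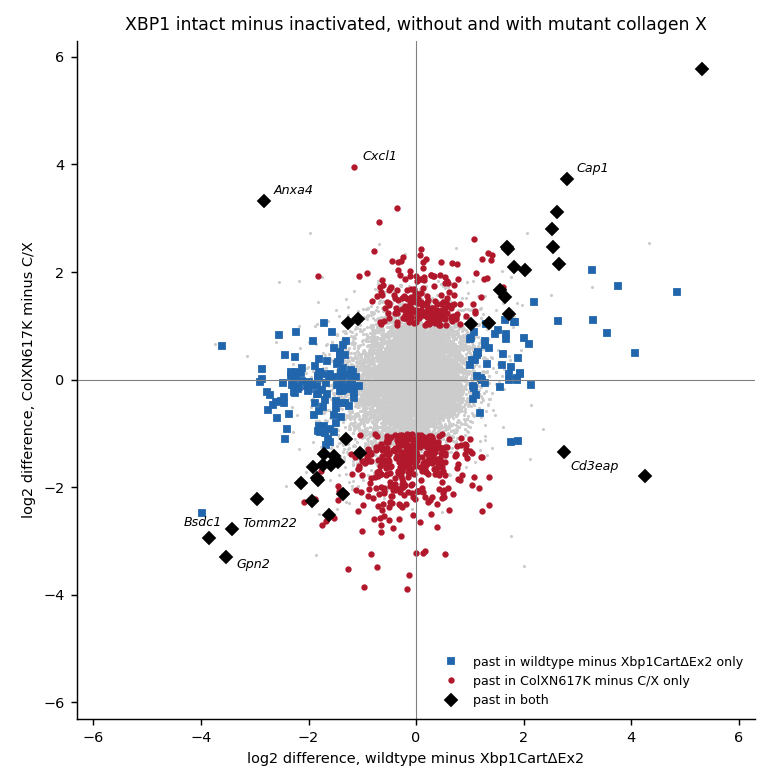
Each point is 1 of 12023 probes, with the log2 difference of wildtype minus Xbp1CartΔEx2 on the horizontal and of ColXN617K minus C/X on the vertical axis. Black diamonds passed both criteria in both comparisons (33 in the same and 5 in opposite directions), red points only with mutant collagen X and blue squares only with normal collagen X; most red points lie near 0 on the horizontal axis.

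Whether the XBP1 difference itself changed with collagen X was tested by an interaction, which passed both criteria at 205 probes (1.71%), 90 positive and 115 negative. It contains the 6 arrays compared above, so its calls are not independent of the 633. Elsewhere a difference past the criteria with mutant and not with normal collagen X does not show that the 2 conditions differ. Among the named genes Cxcl1, Tmem87a, Tlcd4, Alg6, Fn1, Mbtps1, Ykt6 and Msn passed the interaction, whereas Dnajb9 (1.37, adjusted p = 0.0567) and Fkbp11 (1.78, adjusted p = 0.0103) did not. With the Xist term the interaction passed at 0 probes in limma, with 1626 at an unadjusted p under 0.05, against 2901 without the term. With 1 array left out in turn the count ranged from 55 without Xbp1CartΔEx2 replicate 3 to 820 without ColXN617K replicate 3, and it was 1 with median scaling.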

How the data were processed

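The authors amplified RNA from the hypertrophic zone of 12 mice and ran 1 Illumina MouseWG-6 v2 array per mouse. The deposited values were unnormalized probe intensities and a detection score per probe, headed as a p-value but high for bright probes, so that 1 minus the score was used as p. The authors' log2 values, background-corrected and quantile-normalized with neqc of limma, were used as an alternative. Scanner software and genome build are not given in the sources used here.

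Intensities were processed with neqc (offset 16) in limma 3.58.1 under R 4.3.3 with statmod 1.5.0, and the results differed from the authors' values by at most 0.0339. Probes with a score over 0.95 on at least 3 arrays were kept, 12023 of 45281, of which 9866 carried 1 symbol, for 7642 genes, and 2157 had none. The removal of poorly matching probes in the study's methods was not repeated. A mean per genotype was fitted to all 12 arrays with lmFit and eBayes (residual degrees of freedom 8, prior 4.28), and every adjusted p is from this model unless another setting is named, with Benjamini-Hochberg adjustment over all probes kept. Lists used the brightest probe of a gene, without a set test. Calls required an adjusted p no higher than 0.01 together with a 2-fold difference.

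The number of arrays limits the precision. The labels give separate mice as replicates. Deviations of arrays with the same title number correlated at 0.366, 0.597 and 0.659 between ColXN617K and C/X, and at 0.0319, -0.327 and -0.0839 between wildtype and Xbp1CartΔEx2, although ColXN617K 1 correlated best with C/X 2 and C/X 1 best with ColXN617K 2; with each same-number correlation over 0.1 the numbers were treated as pairs for the collagen X mutants as an alternative chosen after seeing the data. Alternatives covered background correction, scaling, filters, array weights, moderation, block, probe averaging and each array left out. The scripts were tested on simulated data with the residual spread of these arrays and 50 probes changed at each size. Calls were made at 0% of 1.5-fold, 16% of 2-fold, 74% of 4-fold and 88% of 8-fold changes. Far fewer probes changed there than were called in the arrays, so these shares are only a guide.

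Named genes were the 15 largest differences in each direction with 1 symbol and no overlap, the XBP1 targets, the genes of the study's qPCR, up to 4 called members of each other list (or 2 further members by the smallest p where fewer than 2 were called), Xbp1 and the 5 largest interactions; genes outside this rule are said to be so. Members and lists were chosen with earlier results of these data known. Promoter windows came from RefSeq (GRCm38.p6).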

Additional observations from a re-analysis of the deposited data

Results flagged for a closer look

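The XBP1 difference itself differed between mutant and normal collagen X at 27 of the named probes, past a fold of 2 and an adjusted p of 0.01 in limma's interaction test. The values are (ColXN617K minus C/X) minus (wildtype minus Xbp1CartΔEx2) on the log2 scale, from 3 arrays per genotype. With high or low Xist as a term none of them passed. Xist was high on 2 of 3 C/X and 2 of 3 wildtype arrays and on none of the other genotypes. On probes not above background in a genotype the value includes background signal and is no exact size.

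Among genes of the secretory pathway, the glucosyltransferase Alg6 had an interaction of 1.76 (adjusted p = 0.00374), with 1.25 under mutant and -0.52 under normal collagen X. The translocation factor Tram1 had 1.35 (0.70 and -0.64). The SNARE Ykt6 had -2.56 (-2.04 and 0.52), and the protease Mbtps1 had -2.20 (-1.78 and 0.42).

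Positive interactions with a rise in ColXN617K over C/X were those of Tmem87a at 3.54 (above background on 1 of 3 C/X arrays), Tlcd4 at 2.34, the nucleolar Nop14 at 2.29, the proteasome activator Psme3 at 2.29 and cytochrome c, Cycs, at 1.74. Tmem68 at 3.74 combined 1.92 under mutant with -1.82 under normal collagen X. The chemokine Cxcl1, Mak16 and Anxa4 were above background on no C/X array on the probes concerned, so their fitted values of 5.11, 3.62 and 6.14 give a direction and a call but no size or rank. Pdpn, the mucin-like protein podoplanin, stood at 4.23 through a difference of -3.60 under normal collagen X and 0.62 under mutant collagen X.

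Negative interactions included that of Cd3eap, a subunit of RNA polymerase I, with a fitted value of -4.08 (-1.34 and 2.74). Cd3eap read 6.22, 6.22 and 6.18 in Xbp1CartΔEx2, under the lowest signal above background on any array (6.9). Its value therefore gives no size or rank. The call of Cd3eap in ColXN617K against C/X was kept in 1 of the 12 fits without 1 array. Fibronectin, Fn1, passed on both probes, at -3.50 (above background on 1 of 3 ColXN617K arrays) and -2.48. Eif5a, above background on no ColXN617K array, had a fitted value of -3.35 that likewise gives no size. Further values were the RNA-binding protein Msi2 at -3.22, Rpl29 at -3.12 and -1.65 on its 2 probes, Sparc at -2.76 on 1 of 3 probes and Znhit1 at -2.72. Atp5l at -2.46, Msn at -1.89, Mrpl53 at -1.77 and Bad at -1.69 completed the set. In each of these other than Cd3eap and Sparc the difference under normal collagen X was between -0.13 and 0.42.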

How the results depend on the processing

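The number of probes called in ColXN617K against C/X (633, with 232 higher and 401 lower) depended on the processing. It was 281 (80 and 201) without background correction, 17 (5 and 12) with arrays scaled by their medians, 383 (143 and 240) without the filter on dim probes, 53 (14 and 39) with only the genotypes compared, 1439 (696 and 743) with array weights, whose estimate stopped before its tolerance, 1146 (482 and 664) at an adjusted p of 0.05 and 376 genes (150 and 226) with probes averaged. Without both arrays numbered 3 it was 1020 (464 higher), with the replicate block within ColXN617K and C/X 1111 (486 and 625) and with the Xist term 128 (32 and 96). A block on the title number of all genotypes gave 705 and one on the description number 459. For wildtype against Xbp1CartΔEx2 (212) the same settings gave 126, 8, 109, 849 and 606 from background correction to the adjusted p of 0.05, leaving aside the genotypes alone, then 682, 508 and 49, with 86 for the description number. For the interaction (205) the counts were 1 with median scaling, 123 without the filter, 2058 with weights, 879 at 0.05, 127 with probes averaged, 979, 687 and 0 in the last settings, and 107 for the description number. Leaving out 1 array gave 235 to 1189 probes (88 to 559 higher, 146 to 630 lower), 57 to 480 for wildtype against Xbp1CartΔEx2 and 55 to 820 for the interaction, the highest each without ColXN617K replicate 3. Median scaling moved the median of all probes to 0.30, -0.34 and 0.73 in the 3 comparisons. The cause of these shifts was not tested.

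Of 78 named probes called, 4 were called in all 31 settings and 47 in all 12 fits without 1 array. With the Xist term 38 of the 78 kept the call, with only the genotypes compared 19, and with median scaling 6. Genes that lost it with the Xist term included Dnajb9, Alg2, Egln3, Ecrg4, Bad, Gss, Ccn1, Ccnd2, Foxa3, Cycs and Nop14. Averaging the probes of a gene turned Ndufs4 to 0.0131 and the called rise of Sparc to -0.59, since other probes of these genes differ. A block on the slide was not run, since the slide of each array is not given in the sources used here. Probes not above background in a genotype allow bounds only.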

Other observations

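Some genes were high in both collagen X mutants, with differences from wildtype given here as levels. Fgf21 was at 13.54 to 13.68 in ColXN617K and 12.97 to 13.19 in C/X, against 6.88 to 7.38 on the 6 arrays with normal collagen X. Lcn2, the iron-carrier protein lipocalin 2, was at 11.46, 11.11 and 11.33 in ColXN617K and 12.43, 12.26 and 12.12 in C/X, against 6.38 to 6.55 in wildtype. Its difference of -0.97 between the mutants had an adjusted p of 0.00384 and fell just short of 2-fold. Creld2 was at 12.59 to 12.65 and 11.60 to 12.42, against 10.06 to 10.40 in wildtype.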
